A study of Mus musculus with 6 samples.

Results

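The cells described here carried the Stroma label in a single-cell mRNA-seq data set of CT26 tumors, and fewer than 0.001 of their unique molecular identifiers (UMIs) came from *Col3a1*, the chain of type III collagen made by fibroblasts. They numbered 15443 of 33961 cells (45.5%, exact binomial 95% interval 44.9 to 46.0, counting error only) and 15443 of the 15687 cells with the Stroma label, and they are called low-*Col3a1* cells below. The other 244 Stroma cells, at or above the limit, are called high-*Col3a1* cells. The low-*Col3a1* cells were proposed to be CT26 tumor cells, with *Tpm1*, *Sparc*, *Krt18* and *Plaur* given as their markers. Since the label and the limit were both taken from the same UMI counts that are described below, the levels are a description of the cells, and no difference between cell classes was tested.

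CT26 tumors, grown under the skin of wild-type female Balb/c mice aged 5 to 6 weeks, were by the labels treated with vehicle or with a low or a high dose of a bispecific protein that joins an antibody to PD-1 with the ligand of GITR. The labels list 2 tumors in each of the 3 groups and give 30 mg/kg for the high dose and 10 or 30 mg/kg, depending on the field, for the low dose. The study's own account of the experiment names an isotype control and a single, different dose, so the groups are given here as labelled. Tumors were taken 5 days after treatment, dissociated, enriched for CD45+ cells with beads and counted by 3′ droplet sequencing. The deposited table holds 4 libraries, M1, M2, M5 and M6, whose names could not be matched to tumors or groups, so their values are given side by side in that order and treatment was not compared.

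CT26 is a colon carcinoma line that a chemical carcinogen induced in a Balb/c mouse. It is known for a mesenchymal shape and the loss of the cell cycle inhibitor gene *Cdkn2a*, and it is widely used because T cells recognize it. Tumor cells meet T cells through peptides on MHC class I, respond to the interferons those cells secrete by inducing antigen processing genes, chemokines and the PD-1 ligand *Cd274*, and shape the infiltrate through the chemokines and proteases they make.

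Library M1 held 6171 low-*Col3a1* cells (59.9% of its cells), M2 held 5057 (56.6%), M5 held 1912 (26.7%) and M6 held 2303 (30.4%). Their share was thus lower in M5 and M6, and since the cells had been enriched for CD45, the shares cannot be told apart from the yield of that step. The median low-*Col3a1* cell had 40996 UMIs and 5505 genes, against 27072 UMIs in high-*Col3a1* cells and 7609 in cells of immune labels, and low-*Col3a1* cells held 74.8% of all UMIs. Their UMIs summed to 263887092, 220637335, 89760034 and 110801443, in the same order. Mitochondrial UMIs made up a median of 4.87%, 1858 cells (12.0%) were over 10%, 186 cells (1.20%) had a doublet score over 0.25, and 50 cells carried a barcode sequence that also occurred in another library. The level of a gene is written in CPM: its UMIs over the cells of a class, scaled to 1000000 UMIs of that class. Each transcript is counted at its 3′ end, so that CPM is not divided by gene length. Ratios are on the log2(CPM + 1) scale.

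The *Col3a1* limit did not fall in a gap. The 88 low-*Col3a1* cells just inside it, at 800 to 1000 CPM of *Col3a1*, had 11.4 CPM of *Krt18*, 183 of the cyclin gene *Ccnd1*, 3290 of the matrix proteoglycan gene *Dcn* and 60.1 of *Xist*, the RNA of the inactive X chromosome in female cells. The 49 cells just outside it, at 1000 to 1250 CPM, had 12.9 CPM of *Krt18*, 133 of *Ccnd1*, 4628 of *Dcn* and 89.7 of *Xist*. The 7921 cells without a *Col3a1* UMI had 36.8 CPM of *Krt18*, 533 of *Ccnd1*, 180.0 of *Dcn* and 18.3 of *Xist*. From there to the limit, *Dcn* and *Sparc* levels were higher in each *Col3a1* class than in the one below, and *Krt20* levels were lower. *Xist* reached 493 CPM and the collagen gene *Col1a1* 3765 CPM only from 2000 CPM of *Col3a1* upwards, so that the 105 high-*Col3a1* cells at 1000 to 2000 CPM were closer in these genes to the cells inside the limit than to the 80 cells over 10000 CPM, which had 676 CPM of *Xist* and 12521 of *Col1a1*.

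**Figure D1:**
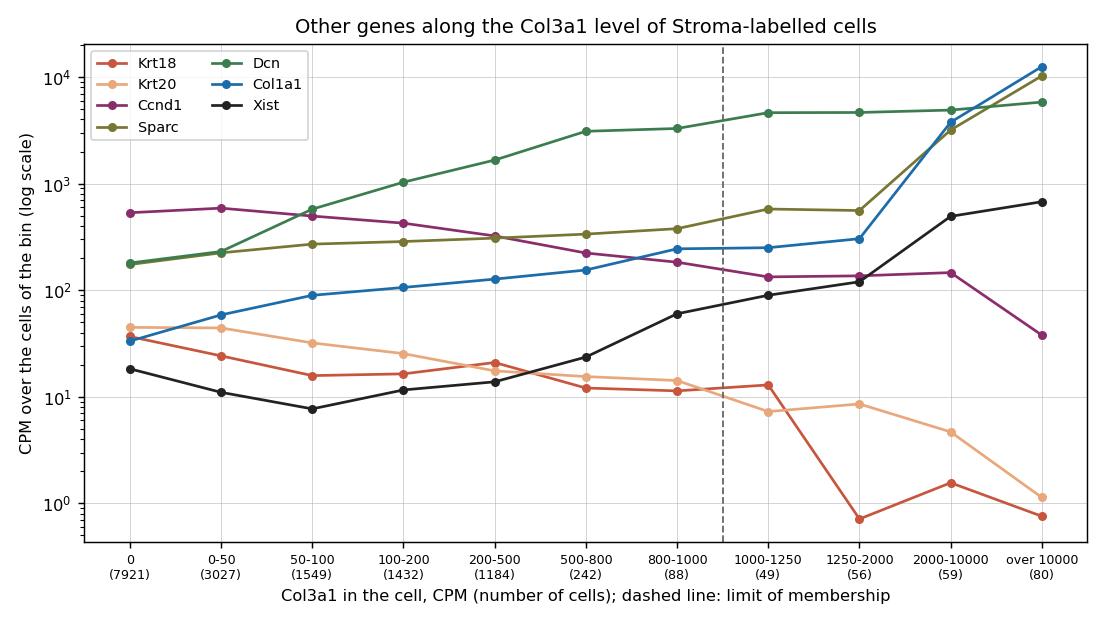
CPM of 7 genes (y axis, log scale) in Stroma-labelled cells grouped by the *Col3a1* level of the cell (x axis, with the number of cells), summed over the 4 libraries; the dashed line is the limit of the low-*Col3a1* cells. *Dcn* climbed from 180.0 CPM at 0 *Col3a1* UMIs to 3290 CPM just inside the limit, while *Col1a1* and *Xist* reached at most 304 and 120.0 CPM up to 2000 CPM of *Col3a1*.

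All 4 proposed markers were detected in low-*Col3a1* cells of every library. *Tpm1* (tropomyosin 1, chr9:67022590-67049406 of GRCm38) had 396, 402, 382 and 389.6 CPM in the 4 libraries, and *Sparc* (a collagen-binding matrix protein, chr11:55394500-55423183) had 234, 199.6, 199 and 217 CPM in the 4 libraries. *Krt18*, a keratin of simple epithelia (chr15:102028180-102032027), had 27.9, 34.2, 19.5 and 26 CPM, and *Plaur*, the urokinase receptor (chr7:24462484-24475968), had 202, 202, 247 and 237 CPM. *Krt18* varied most between libraries, 1.76-fold from lowest to highest, and *Tpm1* least, 1.05-fold. High-*Col3a1* cells had 447 CPM of *Tpm1*, 4815 of *Sparc*, 3.06 of *Krt18* and 96.7 of *Plaur*, and cells of immune labels 72.8, 21.2, 3.06 and 140.4. The *Krt18* level of high-*Col3a1* cells rested on M1, with 5.66, 0, 0.858 and 1.74 CPM library by library, and the pooled log2 ratio of 2.86 became 4.07 without M1 and 1.72 with a *Col3a1* limit of 0.0005. A gene is counted below as higher or lower where it was past 2-fold in the same direction in all 4 libraries. Against cells of immune labels, 3 of the 4 markers were higher, among 1610 of 23642 genes (6.81%), with *Plaur* as the exception. Against high-*Col3a1* cells, *Krt18* alone was higher, among 436 of 22693 genes (1.92%), and *Sparc* was lower, among 1399 genes (6.16%), while *Tpm1* and *Plaur* were in neither count. Of the 8468 genes of at least 10 CPM in either class, 343 were higher and 961 lower than in high-*Col3a1* cells. Against cells of immune labels, 1153 of 8828 such genes were higher and 1613 lower. These shares are the background for each list below, and a list count near them is no result about that list.

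At an equal depth of 5000 UMIs per cell, 79.0% of low-*Col3a1* cells carried a *Tpm1* UMI, 55.6% one of *Sparc*, 50.2% one of *Plaur* and 9.19% one of *Krt18* (8.73 to 9.66), with 551 shallower cells left out. Cells of immune labels, which should lack *Krt18*, had 0.714% with a *Krt18* UMI, 3.71% with one of *Sparc*, 19.6% with one of *Tpm1* and 22.3% with one of *Plaur*, with 5915 shallower cells left out. High-*Col3a1* cells had 1.72%, 88.4%, 77.7% and 31.3% in the same order, with 11 left out. Unthinned low-*Col3a1* cells (median 40996 UMIs) gave 30.7% for *Krt18*, and unthinned cells of immune labels (median 7609 UMIs) 1.70%. The 154 low-*Col3a1* cells with most *Krt18* UMIs held 22.8% of them, against 13.8% for *Krt20* and 4.91% for *Tpm1*. Such a share also depends on level, which was 28.5, 40.0 and 395 CPM in that order.

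**Figure D2:**
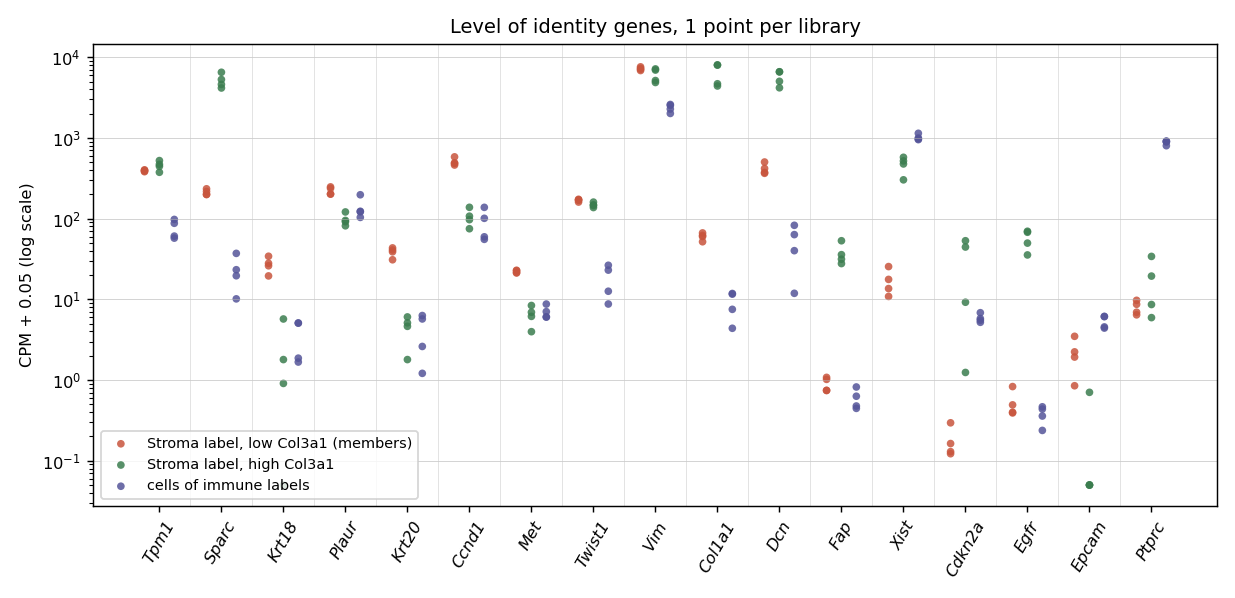
CPM + 0.05 (y axis, log scale) of 17 genes, with 1 point per library for low-*Col3a1* cells (members, red), high-*Col3a1* cells (green) and cells of immune labels (blue). *Krt18*, *Krt20*, *Ccnd1* and *Met* were highest in low-*Col3a1* cells in each library, *Col1a1*, *Dcn* and *Fap* in high-*Col3a1* cells, and *Cdkn2a* was lowest in low-*Col3a1* cells.

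Of 15 epithelial genes, 2 reached 10 CPM in low-*Col3a1* cells, *Krt18* and the intestinal keratin gene *Krt20* (40.9, 43.3, 30.9 and 38.8 CPM). Both were higher than in high-*Col3a1* cells and in cells of immune labels, and the *Krt20* level was 4.58 CPM in the former and 3.52 in the latter. With a *Col3a1* limit of 0.0005, the pooled log2 ratio of *Krt20* to high-*Col3a1* cells went from 2.88 to 1.84. The defining epithelial genes were near 0, with 1.72 CPM of *Epcam*, 0.858 of the E-cadherin gene *Cdh1*, 1.28 of *Krt8*, 0.598 of *Krt19*, 0.381 of the intestinal transcription factor gene *Cdx2* and 0 of *Cdx1*. For *Cdx1*, 0 of 685085904 UMIs allow a level of up to 0.00438 CPM. Of 22 mesenchymal genes, 12 were higher than in cells of immune labels (all genes: 6.81%) and 1 was lower, *Cnn2*. They include *Vim* (vimentin, 7092, 7604, 7277 and 6847 CPM), the N-cadherin gene *Cdh2* (31.1, 29, 28.8 and 27) and the transcription factor genes *Twist1* (160.5, 174, 170.1 and 169), *Twist2* (53.9 pooled), *Prrx1* (218), *Snai1* (26.7) and *Snai2* (12.1). Against high-*Col3a1* cells, 1 of the 22 was higher (all genes: 1.92%), *S100a4* (3135 against 1039 CPM), and 5 were lower (all genes: 6.16%). These 5 include the contractile genes *Acta2* (1.15 against 154 CPM) and *Tagln* (0.667 against 136). The 17 immune genes were each lower than in cells of immune labels, among 2358 of 23642 genes (9.97%), with 6.87, 6.38, 9.67 and 8.64 CPM of *Ptprc*, the gene of CD45, and 2542 low-*Col3a1* cells (16.5%) had a *Ptprc* UMI.

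All 14 fibroblast genes were lower than in high-*Col3a1* cells, with a median log2 ratio of −5.07 against −0.02 over the 8468 genes of at least 10 CPM in either class. *Col3a1*, which sets the limit, is 1 of the 14 and was lower by construction, and the median of the other 13 was −4.30, the value of *Pdgfra*. That median is not free of the limit either. Genes that rise with *Col3a1*, as *Dcn* and *Col1a1* did above, are separated by the same limit. *Col1a1* had 59.98, 51.7, 66.5 and 61.9 CPM in low-*Col3a1* cells and 4692, 4406, 8021 and 8009 in high-*Col3a1* cells. *Fap*, the fibroblast activation protein gene, had 0.784 against 33.9 CPM, and *Postn*, of the matrix protein periostin, 0.990 against 464. Fibroblast genes were not uniformly absent, however: *Dcn* had 365, 503, 374 and 419 CPM, *Col1a2* 614, 613, 582 and 616 CPM and *Pdgfrb* 19.97, 22.7, 24 and 21.8 CPM in low-*Col3a1* cells, and 9 of the 14 were higher than in cells of immune labels. The 4 endothelial genes summed to 3.42 to 7.27 CPM over the libraries and the 4 pericyte genes to 0.826 to 1.71 CPM. The endothelial sum holds for these 4 genes only, as *Cd34*, *Sele*, *Selp* and *Esm1*, given below, were not in that list.

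Among 11 genes known as drivers in CT26 or of cancer in general, *Ccnd1* and the receptor kinase gene *Met* were higher than in both other classes. *Ccnd1* had 583, 491, 483 and 462 CPM in low-*Col3a1* cells, 102 in high-*Col3a1* cells and 83 in cells of immune labels, and *Met* had 22.9, 22.6, 21.5 and 21.2, against 6.81 and 6.97. *Myc* was higher than in cells of immune labels alone (117 against 24.3 CPM). *Egfr*, the receptor of epidermal growth factor, was lower than in high-*Col3a1* cells, at 0.417 against 49.2 CPM. *Cdkn2a* (chr4:89274471-89294653, minus strand) had 0.0796, 0.113, 0.245 and 0.0722 CPM, or 76 UMIs in 43 of 15443 cells, against 1.19, 9.16, 53.2 and 44.4 CPM in high-*Col3a1* cells. Its neighbor *Cdkn2b*, another cell cycle inhibitor gene (chr4:89306299-89311039, minus strand), had 82 UMIs (0.120 CPM, against 6.67). *Mtap*, a purine salvage gene nearby (chr4:89137122-89181081, plus strand), had 178, 162, 143 and 137 CPM in low-*Col3a1* cells and 77 in high-*Col3a1* cells. With a *Col3a1* limit of 0.0005, the pooled log2 ratio to high-*Col3a1* cells went from 1.06 to 0.44 for *Mtap* and from 2.34 to 1.67 for *Ccnd1*.

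A scan along the chromosomes, added after the data were seen, took the 10737 genes with at least 2 CPM either in low-*Col3a1* cells or in both high-*Col3a1* cells and cells of immune labels. Of these, 224 were under 0.5 CPM in low-*Col3a1* cells, and 3 runs of at least 3 such genes in a row were found. The longest in bases was on chromosome 6, from *Vopp1* to *Tigd2* (from 57727807 to 59212033), with 0.290 CPM of *Vopp1*, 0.245 of the drug efflux pump gene *Abcg2* and 0.416 of *Tigd2*, against 9.86, 16.3 and 11.7 CPM in high-*Col3a1* cells. *Herc3*, *Fam13a* and *Gprin3*, which lie between or just beyond them, were not in the scan, since high-*Col3a1* cells had only 0.833, 0.417 and 0.695 CPM of them. They had 0.201, 0.0423 and 0.112 CPM in low-*Col3a1* cells and 16.6, 0.769 and 12.3 CPM in cells of immune labels. The next gene on the other side, *Lancl2* (57702540 to 57739439), overlaps *Vopp1* on the opposite strand and had 11.2, 10.4, 11.8 and 9.52 CPM. The other runs were *Gstt3*, *Gstt1* and *Gstt2* on chromosome 10, glutathione transferase genes of similar sequence (0.0949, 0.0467 and 0.282 CPM), and *Armcx4*, *Armcx3* and *Armcx2* on chromosome X (0.0569, 0.378 and 0.107 CPM). *Armcx3* had 47.8 CPM in high-*Col3a1* cells. Whether these stretches are deleted or silent in the low-*Col3a1* cells was not tested, as RNA counts hold no DNA copies. Over whole chromosomes, the median log2 ratio to high-*Col3a1* cells ran from −0.30 on chromosome 16 to 0.24 on chromosome 15.

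**Figure D3:**
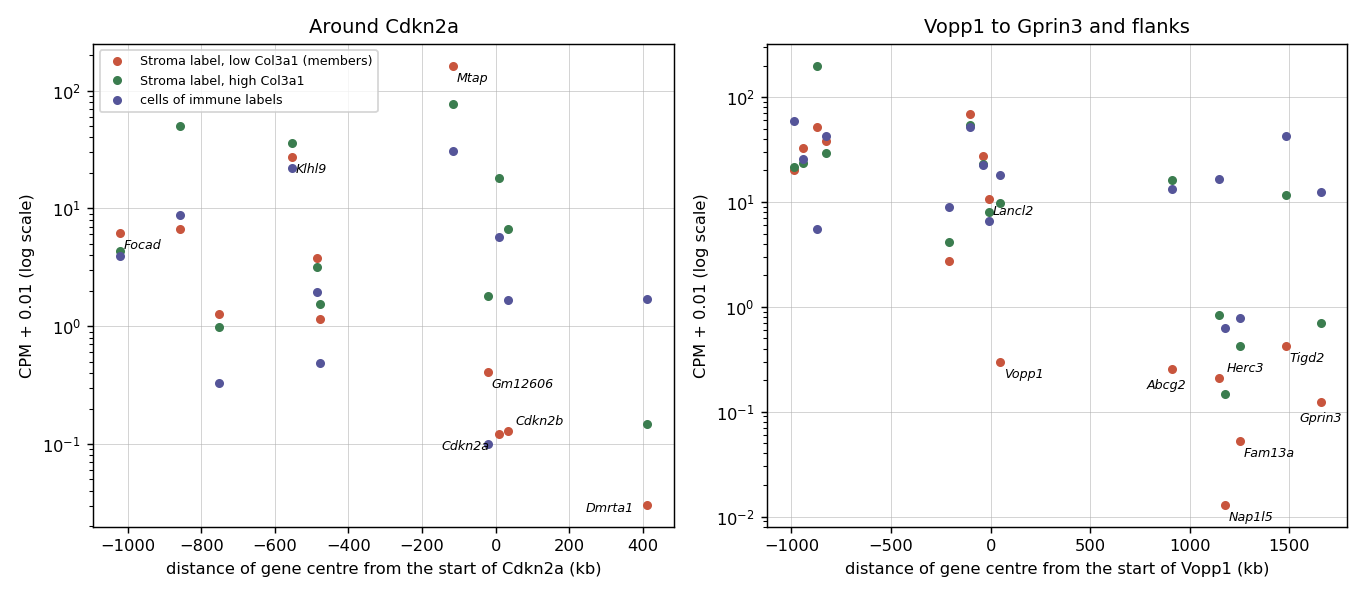
CPM + 0.01 (y axis, log scale, summed over the 4 libraries) of genes by the distance of their centre from the start (lower coordinate) of *Cdkn2a* (left) and of *Vopp1* (right), in kb, for low-*Col3a1* cells (members, red), high-*Col3a1* cells (green) and cells of immune labels (blue). In low-*Col3a1* cells, *Mtap* stood at 162 CPM and *Cdkn2a* at 0.111, and the genes from *Vopp1* to *Gprin3* lay below 0.5 CPM next to *Lancl2* at 10.7 CPM.

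*Xist* had 10.8, 13.6, 25.4 and 17.6 CPM in low-*Col3a1* cells, against 303, 476, 576 and 519 in high-*Col3a1* cells and 953, 1142, 973 and 998 in cells of immune labels. It had 28.3 CPM as a mean over low-*Col3a1* cells, against 14.7 from their summed UMIs. It sat in few cells: 1642 cells (10.6%) had a *Xist* UMI, and the 154 cells with the most held 62.7% of the UMIs. In 94 cells (0.609%, or 20, 25, 37 and 12 library by library), *Krt5*, *Krt14* and *Krt15*, keratin genes of stratified epithelium, summed to over 1000 CPM. These 94 cells held 98.2% of the *Krt14*, 98.5% of the *Krt5*, 78.3% of the *Epcam* and 41.6% of the *Xist* UMIs, and their level of *Xist* was 1598 CPM and that of *Krt18* 0.762 CPM. A further 26 cells had UMIs of at least 3 of the 4 endothelial genes. They held 91.7% of the *Cdh5* and 93.8% of the *Cldn5* UMIs, with 878 CPM of *Xist* and 4454 of *Sparc*. The other 15323 low-*Col3a1* cells held 53.5% of the *Xist* UMIs, and 334 of the 448 cells over 100 CPM of *Xist* were among them. In these 15323 cells *Xist* had 7.90 CPM, *Krt14* 0.465, *Epcam* 0.368, *Krt18* 28.6 and *Krt20* 40.2 CPM. Both groups of cells were picked by these genes after the data were seen, and they count as low-*Col3a1* cells by their label and the *Col3a1* limit. Summed over all low-*Col3a1* cells, the levels of *Krt14*, *Krt5* and *Cdh5* thus came mainly from these 120 cells. Another gene rested on 1 cell: *Hbb-bs*, of hemoglobin, had 3672 UMIs, 3527 of them in 1 cell of M5.

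Among genes of at least 10 CPM in either class, those with the largest ratio to high-*Col3a1* cells in their least different library were led by *Nppb*, the gene of B-type natriuretic peptide. *Nppb* had 96.5, 176, 221 and 196 CPM in the 4 libraries, against 3.57, 6.54, 0 and 3.49 CPM in high-*Col3a1* cells. *Slurp1*, of a secreted Ly6 protein, had 53.7, 57.9, 83.3 and 63.4 CPM against 2.09, 2.62, 0.858 and 1.74, and *Esm1*, of the secreted proteoglycan endocan, 329.7, 363, 233 and 316 against 28, 27.5, 2.57 and 9.59. These genes were chosen for being higher in every library, so that this is no finding. The next ones were *Krt15* and *Krt14*, which come from the 94 cells above, *Klk10* (27.2 against 0.556 CPM), the EGF family ligand gene *Btc* (29.7 against 1.25), *1700012B09Rik* (242 against 12.6) and the P-selectin gene *Selp* (21.2 against 1.53). *Phgdh*, the entry enzyme of serine synthesis, had 434, 359, 421 and 399 CPM against 52.7, 56.2, 18 and 18.3. *Asns*, of asparagine synthetase, from the stress list, was also higher (315 against 60.005 CPM), as was *Chac1* (17 against 1.11), both targets of the amino acid stress factor ATF4. *Ly6d*, *Fbxo5* and *Cdca7* were also among the 15, and *Ly6d* had 1.44 CPM without the 120 cells with stratified epithelial or endothelial genes.

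The 15 genes lowest against high-*Col3a1* cells, led by *Col5a2* (0.787 against 972 CPM), included the collagen gene *Col12a1*, *Postn*, *Lox*, *Cthrc1*, *Adamts2*, *Rcn3*, *Fstl1* and *Cpxm1*, with *Col3a1* itself by construction. The others were *Meg3* (0.974 against 806 CPM), *Gpx3*, *Sfrp2* and the chemokine genes *Ccl11* (0.174 against 464) and *Cxcl12* (0.984 against 643). Of 16 matrix and basement membrane genes, 13 were lower than in high-*Col3a1* cells (all genes: 6.16%) and 12 higher than in cells of immune labels (all genes: 6.81%). Genes that rise with *Col3a1* are separated by the limit itself, so neither the 13 nor the 15 lowest genes are independent of it. *Lama5*, of a laminin chain, was the 1 gene higher than in high-*Col3a1* cells (39.6 against 11.4 CPM).

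Against cells of immune labels, the 15 leading genes were *Fst*, *Nppb*, *Steap1*, *1700012B09Rik*, *Prkg2*, *Msln*, *Adh7*, *Timp1*, *Tinagl1*, *Sele*, *Slurp1*, *Esm1*, *Sparc*, *Cavin3* and *Cd34*. *Fst*, of the activin inhibitor follistatin, had 182, 183, 283 and 213 CPM against 18.7, *Msln*, of the surface protein mesothelin, 112, 95, 100.1 and 96.8 against 9.32, and *Cd34* 294, 277, 267 and 263 against 27.7. The genes were also counted in the immune cells themselves, where the median level of the 15 was between 2.55% (T cell MEM) and 13.3% (T cell EFF) of that in low-*Col3a1* cells. The pooled log2 ratio of the 15 genes to immune labels was 3.01 to 3.36, and the source of their UMIs in immune cells was not tested. In the 37 cells of the Stem cells label the median was 70.1%.

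The highest levels outside ribosomal protein and mitochondrial genes were those of *Tpt1* (13907 CPM), *Malat1* (10078), *Eef1a1* (9333), *Vim*, the ferritin gene *Fth1* (6849.6), *S100a6* (5435), *Spp1* (5429), which encodes osteopontin, and the MHC class I gene *H2-D1* (5279.6). The homeobox gene *Rhox5*, chosen after its values were seen, had 515, 450.0, 429 and 469.6 CPM, against 168 in high-*Col3a1* cells and 45.3 in cells of immune labels.

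Of 16 G2 and M phase genes, 9 were higher than in high-*Col3a1* cells (all genes: 1.92%) and 8 higher than in cells of immune labels (all genes: 6.81%). In neither comparison were any lower, with 0 of the 16. The list summed to 2791, 2277, 2329 and 2043 CPM in the 4 libraries, against 549 CPM in high-*Col3a1* cells and 1641 in cells of immune labels. M1 had the highest level for 15 of the 16 genes and M6 the lowest for all 16, against 2920 (39.7%) and 1876 (25.5%) of the 7348 genes of at least 10 CPM. Of 15 S phase genes, 7 were higher than in high-*Col3a1* cells (all genes: 1.92%) and 0 differed by the 2-fold rule from cells of immune labels. *Ube2c*, of a mitotic ubiquitin enzyme, had 429, 330.3, 349 and 323 CPM against 40.2, 98.8, 70.3 and 11.3 in high-*Col3a1* cells, *Cenpf*, of a kinetochore protein, 184, 148, 141 and 128 against 18.2, 32, 25.7 and 6.97, and the replication licensing gene *Mcm7* 106, 91.7, 97.3 and 79.2 against 28.3, 25.5, 16.3 and 11.3. *Mki67* was past 2-fold in all libraries against neither class (75.3, 29.6 and 101 CPM). After thinning to 5000 UMIs, 79.5% of low-*Col3a1* cells (78.8 to 80.1) had UMIs of at least 2 of the 31 genes, library by library 83.4%, 76.4%, 80.9% and 74.7%, and 97.3% had them without thinning. High-*Col3a1* cells had 66.1% (59.6 to 72.1). Among immune labels, DC had 75.4% and Myeloid 77.7%, and the other labels had more than low-*Col3a1* cells, up to 96.3% in NKT and T cell EFF. Only deeper cells enter these shares, such as 299 of 781 NKT cells, 2358 of 4398 NK cells, 16 of 124 B cells and 11 of 55 T cell Naive cells. The intervals of B cells (61.7 to 98.4) and T cell Naive (48.2 to 97.7) include 79.5%. At 10000 UMIs per cell, DC had 94.7% and Myeloid 95.6%, against 93.9% in low-*Col3a1* cells. The summed G2 and M level was pooled over immune labels and is not given by label. No order of the classes was read from the shares.

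Of 28 interferon response genes in the table, 26 reached 10 CPM in low-*Col3a1* cells. Against high-*Col3a1* cells the list had a median log2 ratio of 0.01, 1 gene higher (*Ido1*, 7.50 against 0.278 CPM) and 1 lower (*Cxcl9*, 13.2 against 1170.1 CPM). Over all genes, 1.92% were higher and 6.16% lower. *Bst2*, of the viral tether tetherin, had the highest level of the list, with 846, 905, 1361 and 1303 CPM in the 4 libraries. *Cxcl10*, a chemokine that attracts T cells, had 463, 554, 953 and 938 CPM, and *Gbp2*, a GTPase against intracellular microbes, 429, 524, 755 and 661. These 3 genes were lowest in M1 and highest in M5. The promoters of these 3 leading genes are printed because 14 of the 21 list genes with a known promoter share a motif there. They run from 250 bases before to 50 bases after the RefSeq start on GRCm38.p6, and capitals mark the interferon-stimulated response element GAAANNGAAA and the gamma-activated site TTCNNNGAA, found on either strand.
*Bst2*, chr8:71537423-71537722, minus strand: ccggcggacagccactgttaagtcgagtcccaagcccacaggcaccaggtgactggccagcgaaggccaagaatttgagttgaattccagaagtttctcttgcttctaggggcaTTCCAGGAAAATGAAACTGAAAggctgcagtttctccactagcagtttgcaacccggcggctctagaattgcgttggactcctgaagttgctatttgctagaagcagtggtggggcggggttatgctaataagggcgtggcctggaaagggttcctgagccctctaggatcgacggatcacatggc
*Cxcl10*, chr5:92348840-92349139, minus strand: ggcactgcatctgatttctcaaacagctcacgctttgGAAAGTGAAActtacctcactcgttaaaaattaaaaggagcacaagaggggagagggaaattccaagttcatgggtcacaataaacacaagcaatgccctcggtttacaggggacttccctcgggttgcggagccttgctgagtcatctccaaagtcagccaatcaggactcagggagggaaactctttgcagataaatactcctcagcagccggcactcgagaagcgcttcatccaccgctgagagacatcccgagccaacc
*Gbp2*, chr3:142620413-142620712, plus strand: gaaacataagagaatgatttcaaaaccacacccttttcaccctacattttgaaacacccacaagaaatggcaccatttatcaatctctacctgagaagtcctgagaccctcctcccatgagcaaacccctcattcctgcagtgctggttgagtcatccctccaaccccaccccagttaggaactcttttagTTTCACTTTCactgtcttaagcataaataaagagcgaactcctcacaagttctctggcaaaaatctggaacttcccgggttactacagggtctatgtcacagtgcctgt
In *Bst2*, 2 overlapping matches of the first motif began at −130 and −124 from the start and overlapped a match of the second at −136. *Cxcl10* had 1 match of the first motif at −213, and *Gbp2* had 1, read on the opposite strand, at −59. Of the 21 list genes with a promoter in the table used, 14 (66.7%) held GAAANNGAAA, against 1079 of all 27025 promoters (3.99%) and 4.22% of the 5832 genes of at least 10 CPM. TTCNNNGAA was in 6 of 21 (28.6%), against 9.55% of all promoters. A match is a sequence in the window and does not show that a factor bound it.

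The libraries were far apart in this list. It summed to 4255, 4864, 7690 and 7332 CPM in low-*Col3a1* cells, 1.81-fold from lowest to highest, and 8 of the 26 genes spread over 2-fold between libraries, against 69 of all 7348 genes of at least 10 CPM (0.939%). The lowest library was M1 for 24 of the 26 genes, against 1780 of the 7348 (24.2%). *Ifit1*, of a protein that binds viral RNA, had 85.2, 115, 185 and 229 CPM, *Rsad2*, of the antiviral enzyme viperin, 33.6, 48.3, 68 and 93.5, and the transcription factor gene *Irf1* 217, 257, 391 and 362. In cells of immune labels the list summed to 3157, 3046, 3279 and 3469 CPM, and in high-*Col3a1* cells to 6059, 7546, 6835 and 9656. The 17 immune genes in low-*Col3a1* cells, as a measure of immune RNA, summed to 106, 94.9, 147 and 123 CPM. Without the cells that had a *Ptprc* UMI, the interferon list summed to 4264, 4810, 7640 and 7386 CPM, 1.79-fold from lowest to highest. The immune genes still summed to 60.3, 59.4, 87.4 and 74.2 CPM in the cells kept. Whether immune RNA had a part in the spread of the interferon list was not tested. Which library received which treatment is not known, so nothing about treatment was read from this.

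**Figure D4:**
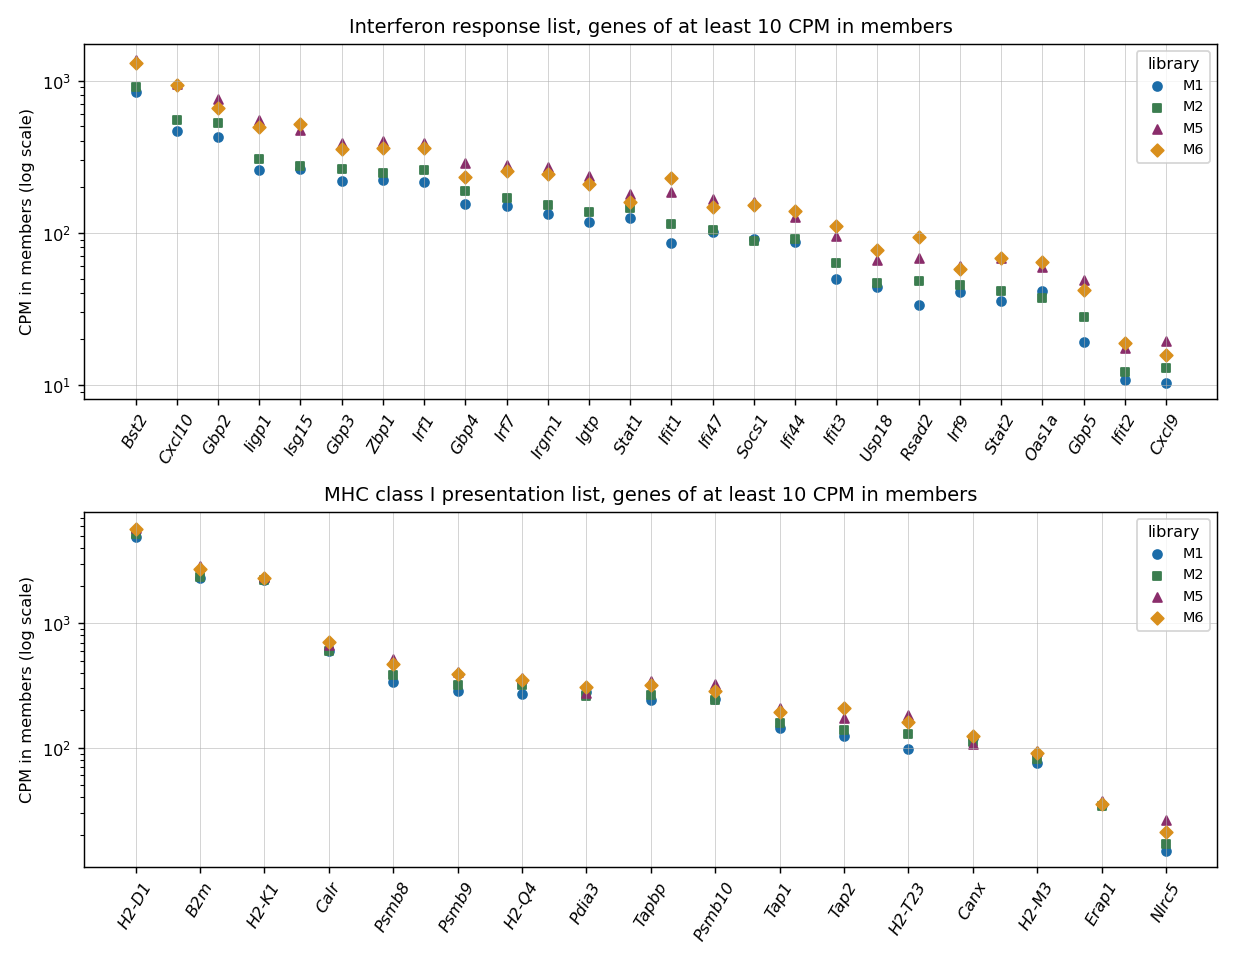
CPM in low-*Col3a1* cells (members; y axis, log scale) of the interferon response genes (top) and the MHC class I presentation genes (bottom) of at least 10 CPM, with 1 symbol per library. The interferon genes were lowest in M1 for 24 of 26 genes, and the MHC class I genes lay closer together.

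All 17 genes of MHC class I presentation reached 10 CPM in low-*Col3a1* cells, and 0 were past 2-fold against high-*Col3a1* cells. The heavy chain gene *H2-K1* had 2208, 2229, 2364 and 2326 CPM, *H2-D1* 4962, 5237, 5799 and 5702 and *B2m*, of the light chain, 2311, 2363, 2877 and 2743. The peptide transporter gene *Tap1* had 143, 158, 208 and 194 CPM and the immunoproteasome gene *Psmb8* 340.4, 381, 519 and 472. *H2-T23*, of the nonclassical molecule Qa-1, was the 1 gene lower than in cells of immune labels (129 against 430.3 CPM). The list was lowest in M1 or M2 for 16 of the 17 genes, against 3869 of the 7348 (52.7%), and spread 1.20-fold as a sum. MHC class II genes were lower than in cells of immune labels, all 5 of them (all genes: 9.97%). The log2 ratio to immune labels was −3.50 for *Cd74*, the invariant chain gene, −4.55 for *H2-Aa*, −4.48 for *H2-Eb1* and −4.74 for *H2-Ab1*. The 17 genes of the immune list ran from −7.09 (*Cd52*) to −2.09 (*Cd79a*), with −4.73 for the macrophage marker *Csf1r*. *Csf1r* and *Cd79a* had only 0.228 and 0.730 CPM in low-*Col3a1* cells, where the pseudocount of 1 CPM makes ratios smaller. Among genes of at least 10 CPM in either class, the median was −6.68 for the immune list (15 genes) and −4.52 for the class II list (4 genes). *Cd74* had 85.4, 140.0, 182 and 151 CPM and a UMI in 40.8% of low-*Col3a1* cells without thinning. Cells of immune labels had 1440 CPM of it, and whether these UMIs came from the low-*Col3a1* cells themselves was not tested. The 40.8% is thus not a share of expressing cells. Without the cells with a *Ptprc* UMI, the immune list had 60.3, 59.4, 87.4 and 74.2 CPM. The class II list had 133, 218, 266 and 221, from 134, 217, 276 and 234. *Ptprc* is itself in the immune list, so part of that fall was fixed by the choice of cells. Immune RNA also remained in the cells kept, so this step cannot show the source of the class II UMIs.

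The 7 genes of interferon receptors and their kinases were below cells of immune labels in 5 cases (all genes: 9.97%) and higher in 0. *Ifngr1*, a chain of the interferon-γ receptor, had 41.4, 43.3, 40.5 and 43.4 CPM against 670.5, *Ifnar1*, of the type I receptor, 14.6, 15.7, 15.1 and 14.7 against 152, and the kinase gene *Jak1* 63.4, 65, 66.2 and 68.3 against 315. Among 14 checkpoint ligands, *Cd274*, of the PD-1 ligand PD-L1, had 28, 34.2, 74.7 and 68.5 CPM in the 4 libraries, a 2.67-fold spread, and 139 CPM in cells of immune labels. At 5000 UMIs per cell, 15.7% of low-*Col3a1* cells had a *Cd274* UMI, and library by library 11.7%, 13.3%, 25.6% and 23.6%. The same share was 11.6% in high-*Col3a1* cells and 34.9% in cells of immune labels. *Pdcd1lg2*, of PD-L2, had 1.21, 0.965, 1.18 and 1.59 CPM. *Tnfsf18*, of the ligand of GITR, had 9 UMIs in all low-*Col3a1* cells (0.0131 CPM). *Cd47*, which inhibits phagocytosis, had 419, 443, 429.5 and 435 CPM, and *Pvr* and *Nectin2*, ligands of TIGIT and DNAM-1, were the 2 genes higher than in cells of immune labels (68.5 against 23.2 and 19.2 against 3.21 CPM). These 2 of the 14 checkpoint ligands stand against 6.81% of all genes. A further 5 were lower than in cells of immune labels (all genes: 9.97%), and 3 were lower than in high-*Col3a1* cells (all genes: 6.16%). Of 9 NKG2D ligand genes listed, 5 were in the table. *Raet1a*, *Raet1b*, *Raet1c* and *H60a* were not, so no level is known for them. Of the 5, 1 reached 10 CPM, *Ulbp1* (27.8, 25.6, 31.8 and 26.7), and *Raet1e* had 0.0423 CPM against 6.81 in high-*Col3a1* cells.

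Of 23 cytokine and chemokine genes, 7 were higher than in cells of immune labels (all genes: 6.81%) and 5 lower (all genes: 9.97%). Against high-*Col3a1* cells, 0 were higher (all genes: 1.92%) and 8 lower (all genes: 6.16%). *Ccl2*, which attracts monocytes, had 1546, 2131, 2979 and 2991 CPM in the 4 libraries, and *Cxcl1*, which attracts neutrophils, 1409.8, 2087, 1788 and 1870.4 CPM. Both were above immune labels (536 and 382 CPM) in all libraries. *Il11* (124 against 13.7 CPM), *Csf1* (198 against 61.8), *Il34* (17.2 against 1.79), *Lif* and *Cxcl5* made up the rest of the 7. *Csf2*, of GM-CSF, had 49.3, 98.6, 39.5 and 62.7 CPM, highest in M2. The 8 lower than in high-*Col3a1* cells include *Cxcl12*, *Il33* (3.33 against 508 CPM), *Il6* (1.84 against 103), *Tgfb2* (0.600 against 31.4) and *Ccl7* (107 against 1267).

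Of 17 protease and inhibitor genes, 10 were lower than in high-*Col3a1* cells (all genes: 6.16%). The urokinase gene *Plau*, whose receptor *Plaur* was a proposed marker, had 0.553, 0.789, 0.802 and 0.668 CPM, against 66.9 in high-*Col3a1* cells and 40.4 in cells of immune labels. The cathepsin gene *Ctsl* had 2444, 2337, 2065 and 2282 CPM and the inhibitor gene *Timp1* 706, 668, 551 and 634. Of 19 adhesion and surface genes, the integrin gene *Itga6* (82.5 against 18.6 CPM) was higher than in high-*Col3a1* cells. Another comparison, with cells of immune labels, had 9 genes higher (all genes: 6.81%), among them *Tm4sf1* (1412 against 137), *Itgb4* (39.1 against 3.47) and *Cd9* (1046 against 276). *Ly6a*, of the surface protein Sca-1, had 691, 715, 1373 and 1224 CPM and was lower than in high-*Col3a1* cells (2457).

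Of 19 EGFR ligand and MAPK feedback genes, 8 were higher than in cells of immune labels (all genes: 6.81%) and 2 lower, *Spry1* and *Dusp5* (87.7 against 337 CPM). The ligand gene *Hbegf* was higher than in both classes (397, 439.8, 370.1 and 383 CPM, against 146 and 50.5). *Ereg* had 189.7, 207, 227 and 197 CPM and the feedback genes *Phlda1* and *Fosl1* 933 and 182. *Spry1*, of a MAPK inhibitor, was lower than in both (0.498 against 10.8 and 7.59 CPM). Of 13 antioxidant and metal genes, *Gclm* was higher than in both (127 against 53.6 and 38 CPM), and *Hmox1*, of heme oxygenase, spread 2.58-fold between libraries, with 139, 96.1, 248 and 219 CPM. Of 12 stress genes, the heat shock gene *Hspa1b* spread 3.19-fold (21.6, 68.9, 52.9 and 65.2 CPM), and *Atf3* was lower than in both (9.11 against 113 and 90.6).

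Of 15 glycolysis genes, *Pfkp* was lower than in cells of immune labels, *Hk2* lower than in high-*Col3a1* cells and 0 higher than either in all libraries. Their median log2 ratio was 0.45 to high-*Col3a1* cells and 0.53 to cells of immune labels, against −0.02 and −0.03 over all genes of at least 10 CPM. *Ldha* had 1843, 1794, 1706 and 1849 CPM and *Pgk1* 1499.9, 1645, 1593 and 1736. Of 13 hypoxia genes, the carbonic anhydrase gene *Car9* was higher than in both classes (20.2, 21.4, 26.8 and 23.1 CPM, against 2.08 and 4.42), *Ndrg1* had 398, 533, 569 and 627 CPM. *Egln3* was lower than in both (0.346 against 5.0 and 12.5 CPM), and *Adm* and *P4ha2* were lower than in high-*Col3a1* cells (0.415 against 25.8 and 31.5 against 134). Among 12 genes of death receptors and granzyme inhibitors, 2 were higher than in cells of immune labels (all genes: 6.81%), *Tnfrsf12a* (554 against 64.6 CPM) and *Tnfrsf10b* (8.55 against 2.63). Lower than in these cells were 4 of the 12 (all genes: 9.97%). *Fas* was lower than in high-*Col3a1* cells (7.80 against 31.8), and *Serpinb9*, of a granzyme B inhibitor, lower than in cells of immune labels (20.8 against 506).

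Low-*Col3a1* cells of 1 library differed widely from each other. In cells thinned to 5000 UMIs, the interferon list had a median of 16 UMIs in M1 with a 10th to 90th percentile of 3 to 51, 17 (4 to 55) in M2, 32 (8 to 82.4) in M5 and 28 (6 to 83.5) in M6. The spread within each library was thus wider than the distance between the library medians. The G2 and M list had a median of 2 or 3 UMIs and a 90th percentile of 24 to 33. Spearman correlations across cells within a library are given as a description, since the cells share a library and, after thinning, a fixed total. The interferon list and the MHC class I list correlated at 0.47 to 0.57 over the 4 libraries, the S phase list and the G2 and M list at 0.53 to 0.54, and the MHC class I list and the cytokine list at 0.40 to 0.50. The score is a sum of UMIs, and 3 genes made up most of the cytokine list's 11056 CPM: *Spp1* (5429), *Ccl2* (2156) and *Cxcl1* (1752). Interferon and glycolysis lists ran against each other, at −0.41 to −0.30, as did interferon and hypoxia lists, at −0.30 to −0.18. The interferon list and the immune list were at −0.01 to 0.05.

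**Figure D5:**
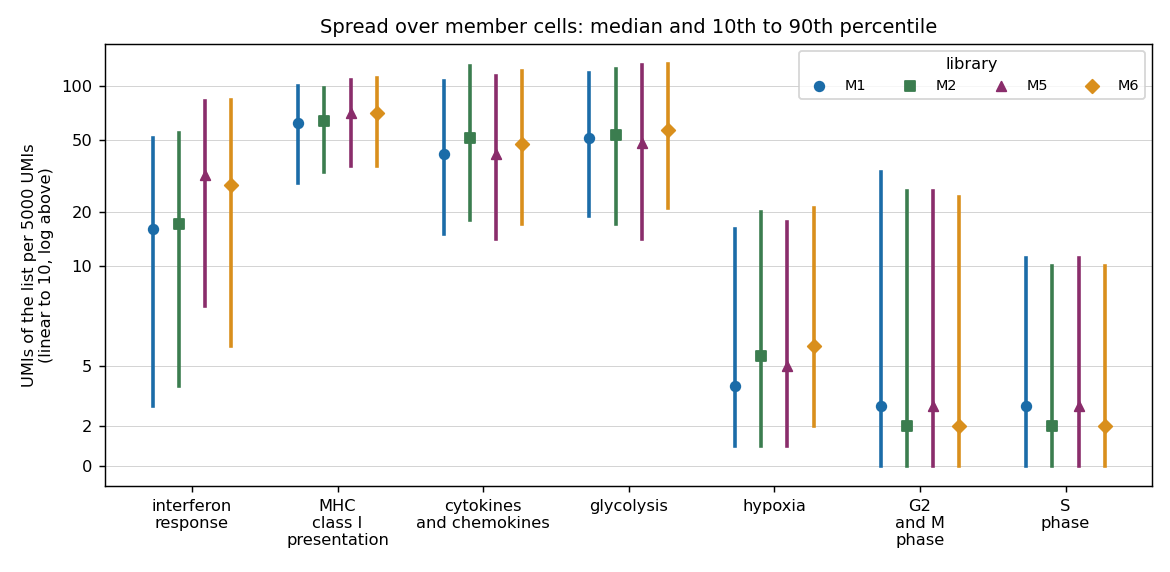
UMIs of 7 gene lists per low-*Col3a1* cell after thinning to 5000 UMIs (y axis, linear to 10 and log above), by list and library; symbols are medians and bars span the 10th to the 90th percentile of cells. The interferon medians were 16, 17, 32 and 28, and the bars of all 4 libraries overlapped in each list. Most UMIs of the cytokine list were those of *Spp1*, *Ccl2* and *Cxcl1*.

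The genes with the widest spread between libraries mixed the few-cell genes above with others. Of the 15 leading genes, *Krt14*, *Krt5*, *Ly6d*, *Perp* and *Sfn* are genes of stratified epithelium that were highest in M5, the library with 37 of the 94 *Krt5*, *Krt14* and *Krt15* cells. *Lcn2*, of the siderophore binder lipocalin 2, had 23.3, 69, 200.4 and 136 CPM in the 4 libraries, in 19.3% of cells, and the 154 cells with the most held 47.8% of its UMIs. *Mgp*, of matrix Gla protein, had 173, 123, 46.7 and 83 CPM, lowest in M5 and highest in M1. *Fabp5* (3.55, 10.2, 42.2 and 5.69), *Cst6*, *C3*, *Saa3*, *Apoe*, *Cxcl5*, *Il1b* and *Cxcl2* were the others. Of these, *Fabp5*, *Cst6* and *Apoe* also rested on the 120 cells with stratified epithelial or endothelial genes. Without those cells the spread of *Apoe* went from 4.36-fold to 1.70-fold, that of *Cst6* from 4.99-fold to 1.97-fold and that of *Fabp5* from 11.9-fold to 3.92-fold, while *Lcn2* stayed at 8.61-fold. Without them, 60 genes spread over 2-fold, 57 of them among the 69. With 1 library left out, the count was 34 genes without M1, 66 without M2, 37 without M5 and 63 without M6. The ratio of a gene cannot rise when a library is left out, so these lower counts do not measure how stable the 69 is. The genes that varied most between cells within every library were mitochondrial (7 of 15), *Malat1*, *Ccl2*, *Fabp4*, *Apoe* and the keratin genes *Krt14*, *Krt15*, *Krt10* and *Krt5*.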

How the data were processed

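Cells of CT26 tumors were enriched for CD45 with beads and profiled with Chromium 3′ V3 chemistry. The authors counted UMIs with Cell Ranger 3.0.2 on GRCm38, kept cells above 500 UMIs, labelled each cell by its highest correlation with ImmGen profiles and deposited raw counts of UMIs for 31053 genes, with a label and a library name per cell. Removal of doublets or free RNA is not given in the sources used here. The deposited counts of each of the 33961 cells summed to the deposited total.

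UMIs were summed over the cells of a class in each library and scaled to CPM (Python 3.11.15, pandas 2.3.3, numpy 2.4.6; intervals with scipy 1.17.1). Log2 ratios used a pseudocount of 1 CPM, and a gene was counted where it was past 2-fold in 1 direction in all 4 libraries. Immune labels are all labels but Stroma and Stem cells. Cells were thinned without replacement to 5000 UMIs for shares and scores, and doublets scored with scrublet in scanpy 1.11.5 (expected rate 0.06). The steps were tested on simulated data. Intervals are exact 95% binomial intervals, and 3 counts are taken as the limit for a count of 0. Positions are from GENCODE M21.

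The cells, the gene lists and the rule for named genes (list members, the 20 highest genes, and the 15 leading genes of each ratio, of the spread between libraries and of the variance between cells) were chosen with earlier results of these data known. Genes of the *Cdkn2a* and *Vopp1* regions, *Rhox5* and *Hbb-bs* were named after their values were seen. *Ctgf* and *Cyr61*, the older symbols of *Ccn2* and *Ccn1*, were not counted in the matrix list. Values of some genes that the rule names are not reported here. The treatment comparison in the design was not run, since no library could be matched to a group.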

Additional observations from a re-analysis of the deposited data

How the results depend on the processing

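Results are counts and levels without a test. The share of low-*Col3a1* cells, 45.5%, was 44.5% with a *Col3a1* limit of 0.0005 and 41.1% without cells with a *Ptprc* UMI, and 39.2% to 50.5% with each library left out. The 436 genes higher than in high-*Col3a1* cells became 708 with a limit of 0.002, 964 with a pseudocount of 0.1 CPM, 151 with one of 10 CPM and 46 with a fold limit of 4. The 1399 lower genes became 622 with a pseudocount of 10 CPM and 728 with a fold limit of 4. Against cells of immune labels, the 1610 higher genes became 688 and 394, and the 2358 lower genes 1107 and 1199, under these same settings. The 69 genes over 2-fold between libraries became 34 without M1 and 37 without M5, within a range of 34 to 66 with each library left out. With fewer libraries the ratio of a gene can only fall or stay, so this range is no measure of stability. The share of cells with UMIs of at least 2 cell cycle genes, 79.5%, was 78.6% without cells with a *Ptprc* UMI, 56.4% at 2000 and 93.9% at 10000 UMIs per cell, and 76.9% to 81.0% with each library left out, so it depends on the depth chosen.

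Of 183 alternative values of single genes, 162 moved by less than the spread between libraries and 21 by more. Only the log2 ratios among them could change sign, as a CPM level cannot, and 0 did. Without the 120 cells with stratified epithelial or endothelial genes, a setting added after the data were seen, 420 genes were higher and 1427 lower than in high-*Col3a1* cells, of which 417 and 1394 were shared. No paired analysis was possible because the libraries could not be matched to replicate numbers. No count test between treatments was run for the same reason. High-*Col3a1* cells numbered 34 to 129 per library, which limits the precision of their low levels, and intervals cover counting error only.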

Other observations

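The labels put the 4 libraries in no group, and the split of M1 and M2 from M5 and M6 described here, and the single genes given for it, were picked after the values were seen. For the interferon response list, the sums were 4255, 4864, 7690 and 7332 CPM in M1, M2, M5 and M6, and for all 26 genes of at least 10 CPM the levels in M5 and M6 both lay above those in M1 and M2. The same held for 15 of 17 MHC class I genes and for 1748 of all 7348 genes of at least 10 CPM (23.8%), while both lay below for 1647 (22.4%). *Ly6a* had 691, 715, 1373 and 1224 CPM, *Ccl2* 1546, 2131, 2979 and 2991 and *Hmox1* 139, 96.1, 248 and 219 in M1, M2, M5 and M6. *Mgp*, with 173, 123, 46.7 and 83 CPM, had both its lower values in M5 and M6. In high-*Col3a1* cells the interferon list summed to 6059, 7546, 6835 and 9656 CPM, and in cells of immune labels to 3157, 3046, 3279 and 3469.

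*Sox2*, a transcription factor gene of stem cells, named after its values were seen, had 58.9, 71, 60.4 and 73.6 CPM in low-*Col3a1* cells, 21 in high-*Col3a1* cells and 6.02 in cells of immune labels. Interferon-β (*Ifnb1*), named likewise, had 0.364, 1.62, 2.09 and 1.93 CPM in low-*Col3a1* cells (855 UMIs), 1.25 CPM pooled, against 0.972 CPM in high-*Col3a1* cells and 0.319 in cells of immune labels.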
